A study of Homo sapiens with 4 samples.

Results

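Transcripts of 10 genes that encode surface antigens of multiple myeloma, a cancer of plasma cells, were followed in 2 established human myeloma cell lines, H929 and KMS28BM. The members were taken by gene name from a fixed set of antigens and therapy targets, and each matched 1 of the 60612 genes in both deposited tables. There were 4 libraries of poly(A)-selected RNA: H929 labelled after sorting on a microfluidic chip, H929 labelled before sorting, KMS28BM labelled after sorting and KMS28BM labelled before sorting, 1 library each. No genotype, drug or time is named in the labels. The series title seems to use the opposite names, placing the A libraries among cells that did not go through the chip. Groups here go by the sample labels, and every ratio within a line would change sign under the title's reading.

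Plasma cells carry a set of surface proteins that most other blood cells lack, and these have become handles for antibodies, bispecific T cell engagers and engineered T cells. Syndecan-1 (CD138, gene SDC1) is a heparan sulfate proteoglycan that defines plasma cells in diagnosis, CD38 is an enzyme that consumes NAD and the target of daratumumab and isatuximab, and BCMA (TNFRSF17) and TACI (TNFRSF13B) are receptors for the survival ligands APRIL and BAFF. SLAMF7 is the target of elotuzumab, GPRC5D is an orphan G protein-coupled receptor bound by talquetamab, FCRL5 is an Fc receptor-like protein of late B cells, CD28 is a costimulatory receptor best known in T cells, NCAM1 (CD56) is an adhesion molecule often gained by malignant plasma cells, and CD47 is a widely expressed signal against phagocytosis. Levels here are of RNA, and surface protein was not measured.

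The start regions of 3 members are shown first. CD38 and GPRC5D were the members past 2-fold within a line, CD38 as deposited and GPRC5D with a trend in GC content and transcript length removed. CD47 is the broadly expressed contrast among the antigens. Each runs for 250 bases before the RefSeq start in GRCh38.p14. The CD38 region is chr4:15778078-15778327, plus strand, the GPRC5D region chr12:12952171-12952420, minus strand, and the CD47 region chr3:108091032-108091281, minus strand. Capitals mark matches, on either strand, to the motifs named below them other than the E-box.
CD38: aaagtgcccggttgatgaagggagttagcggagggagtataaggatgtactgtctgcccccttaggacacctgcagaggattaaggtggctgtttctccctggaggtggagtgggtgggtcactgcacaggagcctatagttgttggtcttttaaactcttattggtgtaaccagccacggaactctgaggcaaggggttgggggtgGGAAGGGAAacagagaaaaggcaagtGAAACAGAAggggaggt
GPRC5D: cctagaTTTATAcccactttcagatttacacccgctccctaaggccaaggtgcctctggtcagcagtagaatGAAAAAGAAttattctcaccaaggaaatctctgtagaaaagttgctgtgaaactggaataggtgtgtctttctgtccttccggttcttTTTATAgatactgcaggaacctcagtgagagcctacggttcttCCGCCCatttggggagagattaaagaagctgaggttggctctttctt
CD47: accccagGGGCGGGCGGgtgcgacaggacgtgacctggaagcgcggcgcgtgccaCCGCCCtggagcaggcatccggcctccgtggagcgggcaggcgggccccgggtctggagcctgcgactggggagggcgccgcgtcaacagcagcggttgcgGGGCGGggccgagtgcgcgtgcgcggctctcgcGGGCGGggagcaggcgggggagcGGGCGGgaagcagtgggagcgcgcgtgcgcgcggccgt
The 8 motifs were the octamer ATGCAAAT, the interferon response motif GAAANNGAA, the ETS-IRF composite motif GGAANNGAA, the NF-kB motif GGGANNTTC, the E-box CANNTG, the GC-box GGGCGG, the TATA motif TATAAA and the XBP1 core CACGTCA. The interferon, ETS-IRF and NF-kB motifs were shortened by their last base after a first search, and these shorter forms match more promoters than the longer ones. CD38 held 1 ETS-IRF composite match, beginning 43 bases before the start, and 1 interferon response match at 17 bases, motifs held by 6.58% and 6.88% of the 35116 RefSeq promoters of this length. It also held 2 E-boxes, as 61.8% of promoters hold at least 1. GPRC5D held 2 TATA matches, beginning 244 and 90 bases before the start (10.7% of promoters hold the motif), 1 interferon response match at 178 bases, 1 GC-box at 47 bases and 1 E-box. CD47 held 6 GC-boxes, the first beginning 243 bases before the start and overlapping the next by 2 bases, where 42.6% of promoters hold the motif, and none of the other 7. The octamer was in 1.63% of promoters, the NF-kB motif in 3.52% and the XBP1 core in 1.68%, and none of these 3 was found in the regions shown. The CD47 region had 39 CG dinucleotides, more than 97.3% of promoters, whereas those of CD38 and GPRC5D had 3 and 4, more than 22.9% and 29.3%. RefSeq promoters matched 7 of the 10 members.

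The libraries held between 9303 and 10782 genes at 1 FPKM or more (fragment counts adjusted for transcript length and sequencing depth), and their depth, read from the worth of 1 fragment in low genes, lay between 21.2 and 24.8 M (mega) fragments. All 9 plasma cell genes of a marker list were at 1 FPKM or more in each library, including XBP1, MZB1, JCHAIN and IRF4. T cell genes summed to 0.76 and 0.84 FPKM in H929, against 0.45 and 0.08 in KMS28BM over 8 genes, with 0 of them at 1 FPKM. NK cell genes summed to 3.10 and 2.59 FPKM in H929, against 0.30 and 0.18 in KMS28BM over 8 genes, with GNLY alone reaching 1.34 FPKM. Genes of B cells, monocytes, stromal cells and erythroid cells summed to between 0.0005 and 2.29 FPKM per list and library. With 1 library per group, differences between libraries of a line were not tested.

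For CD28, NCAM1, GPRC5D and SLAMF7 the levels lay far wider apart between the lines than between the libraries of a line. Both H929 libraries expressed SDC1, CD28, TNFRSF17, GPRC5D and CD38 as their 5 highest antigens, and both KMS28BM libraries SDC1, SLAMF7, TNFRSF17, CD38 and CD47. Of the 10 members, 8 reached 1 FPKM in some library, and for these the H929 libraries lay above both KMS28BM libraries in 3 (36.7% of 12294 genes did) and below both in 4 (29.0% of genes did), which for 8 genes is not far from the background. A gap of 10-fold or more between the nearest libraries, a threshold chosen after the values were seen, was passed by CD28, NCAM1 and GPRC5D with H929 above (4.46% of genes passed in that direction) and by SLAMF7 with KMS28BM above (4.21%). The sources used here do not say whether the tables of the lines were normalized together, so these levels are described and not tested. Intervals on ratios between lines are 95% exact (Clopper-Pearson) counting intervals on estimated fragments, summed over the libraries of a line, and cover counting error only.

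**Figure D1:**
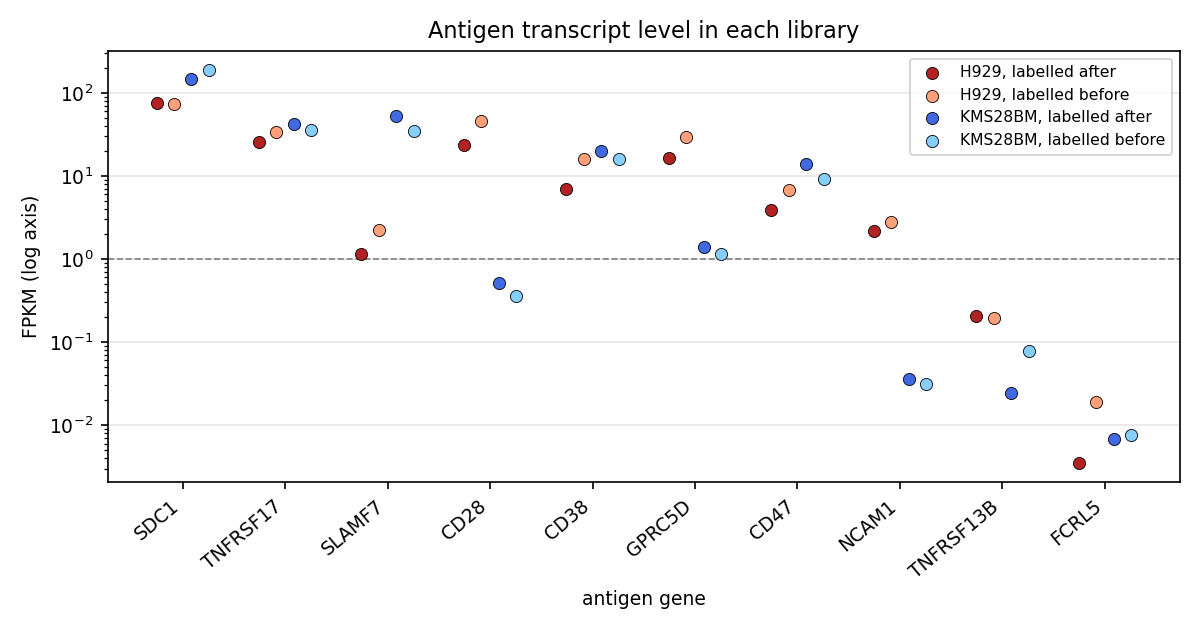
FPKM of each antigen gene (log axis) in the 4 libraries, H929 in red and KMS28BM in blue, with 1 point per library and a dashed line at 1 FPKM. CD28, GPRC5D and NCAM1 stand higher in H929, SLAMF7 stands higher in KMS28BM, and SDC1 is the highest antigen in every library at 73.0 to 187 FPKM.

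SDC1 (ENSG00000115884) was listed at 76.0 and 73.0 FPKM in the H929 libraries labelled after and before sorting, and at 148 and 187 FPKM in those of KMS28BM. It was the highest of the 10 antigens in all 4 libraries, above 94.3% to 97.0% of the genes at 1 FPKM or more. The lines did not overlap, and the H929 mean was 0.445 times the KMS28BM mean (0.438 to 0.458).

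TNFRSF17 (ENSG00000048462), which encodes BCMA, was at 25.9 and 33.9 FPKM in H929, against 41.6 and 35.3 FPKM in KMS28BM. Of the antigens above 10 FPKM it was the most alike between the lines, with an H929 mean 0.777 times that of KMS28BM (0.720 to 0.841). Its libraries labelled before sorting were almost level, and the gap lay between the libraries labelled after sorting. NPIPB2, which overlaps it on the opposite strand, was at 0.651 and 1.02 FPKM in H929, against 2.35 and 1.64 in KMS28BM, and the sources used here name no strand setting for the counting.

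CD38 (ENSG00000004468) was at 6.89 and 16.1 FPKM in H929, against 19.9 and 15.9 FPKM in KMS28BM. The lines overlapped, and only the H929 library labelled after sorting stood apart. Between the libraries labelled before sorting the H929 level was 1.01 times that of KMS28BM, and between those labelled after it was 0.346 times.

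SLAMF7 (ENSG00000026751), a receptor of the SLAM family, was at 1.15 and 2.25 FPKM in H929, against 52.5 and 34.5 FPKM in KMS28BM. It was 25.6-fold lower in H929 by the means (22.1 to 29.5). It ranked as the lowest of the 8 antigens above 1 FPKM in both H929 libraries, whereas in KMS28BM only SDC1 and, in the library labelled before sorting, TNFRSF17 stood above it.

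CD28 (ENSG00000178562) showed the opposite arrangement, at 23.6 and 46.4 FPKM in H929, against 0.521 and 0.354 FPKM in KMS28BM. The H929 mean was 80.0 times that of KMS28BM (65.2 to 100.1), with about 89.0 fragments behind the KMS28BM values. The T cell genes above stood under 1 FPKM in the same H929 libraries, and the NK cell gene GNLY at 1.34 and 0.93 FPKM. The source of the CD28 RNA was not tested.

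GPRC5D (ENSG00000111291) was at 16.4 and 29.5 FPKM in H929, against 1.40 and 1.13 FPKM in KMS28BM, an H929 mean 18.2 times that of KMS28BM (13.9 to 24.4). NCAM1 (ENSG00000149294) was low in H929, at 2.16 and 2.83 FPKM, and lower in KMS28BM, at 0.0361 and 0.0314 FPKM. The NCAM1 ratio of 73.9 rests on about 7.08 fragments in KMS28BM and has a wide interval (36.1 to 187.0). GPRC5D-AS1 and NCAM1-AS1, antisense to these genes, were at 0.183 FPKM or less in all libraries.

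CD47 (ENSG00000196776) was at 3.93 and 6.71 FPKM in H929, against 13.9 and 9.08 FPKM in KMS28BM, with an H929 mean 0.463 times that of KMS28BM (0.426 to 0.504). The lines did not overlap, although the gap was small between the libraries labelled before sorting, at 0.739 times.

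Both remaining members were near the limit of detection. TNFRSF13B (ENSG00000240505), which encodes TACI, was at 0.208 and 0.193 FPKM in H929, against 0.0241 and 0.0782 FPKM in KMS28BM. These values stand for about 8.19 fragments in H929 and 1.91 in KMS28BM, and the ratio of 3.92 has an interval of 0.747 to 36.2; 12.7% of its 50-base words also occur in other genes, mainly the pseudogene TBC1D27P. FCRL5 (ENSG00000143297) was at 0.00354 and 0.0191 FPKM in H929, against 0.00690 and 0.00761 FPKM in KMS28BM, or about 2.45 and 1.43 fragments per line, and a difference between the lines was not detectable at this depth. The other 8 members shared less than 1% of their words with other genes.

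The second comparison set the library labelled after sorting against that labelled before within each line. In H929, 7 of the 8 members at 1 FPKM or more had lower values in the library labelled after sorting (58.3% of genes did), CD38 and CD28 the most, and SDC1 was level. In KMS28BM, 5 of the 6 members measured had higher values in that library (59.4% of genes did), and SDC1 was lower. Ratios below are on the scale of log2(FPKM + 1), on which low genes appear to move less than they do. Of the 8 members in H929, 0 were 2-fold or more higher (1.59% of 11083 genes were) and 1 was 2-fold or more lower (5.17% were). Of the 6 members in KMS28BM, 0 were 2-fold or more higher (4.13% of 10472 genes were) and 0 lower (1.12% were). The members' median ratio was -0.62 in H929, against -0.11 over all genes measured there, and 0.27 in KMS28BM, against 0.12.

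The 9 plasma cell markers also differed between the libraries of a line. They summed to 1067 against 2036 FPKM in H929 and to 2929 against 1889 FPKM in KMS28BM. JCHAIN made up most of each sum, at 589 against 1142 FPKM in H929 and 2431 against 1422 in KMS28BM. Its ratios were -0.95 and 0.77, or -0.52 and 0.25 with the trend in GC content and length removed. Of the 9 markers, 7 were below 0 in H929 (58.3% of genes were), with a median of -0.63. In KMS28BM 5 were above 0 (59.4% of genes were) and 4 below, with a median of 0.05. IRF4, a transcription factor of plasma cells, was the one past 2-fold (5.17% of H929 genes were 2-fold lower), at 55.1 against 260 FPKM in H929. Its ratio there was -2.22, or -1.96 with the trend in GC content and length removed. In KMS28BM it was at 53.4 against 35.0 FPKM. In these bulk samples fewer cells of a type and less RNA per cell cannot be told apart, and the part of these markers in the antigen ratios was not tested.

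Scaling by a trimmed mean moved every H929 ratio up by about 0.26 and every KMS28BM ratio down by about 0.24. The trimmed mean was taken over genes above 0.0001 FPKM in both libraries, also those under 1 FPKM. The genes 2-fold higher and lower then numbered 420 and 217 in H929, in place of 176 and 573, and 159 and 204 in KMS28BM, in place of 433 and 117. Under it 0 members were past 2-fold, and the KMS28BM ratios of TNFRSF17 and GPRC5D came to -0.0028 and -0.066. Centring on the median of genes at 5 FPKM or more in both libraries moved the ratios the other way. They went down by about 0.07 in H929 and up by about 0.04 in KMS28BM. The genes 2-fold higher and lower were then 140 and 749 in H929, and 505 and 101 in KMS28BM.

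CD38 at 6.89 against 16.1 FPKM in H929 was the member past 2-fold, with a log2 ratio of -1.12 and a fold of 0.427 (0.395 to 0.462, counting error only). Of the H929 genes measured, 3.42% had a lower ratio. CD28 followed at -0.95 (6.13% of genes lower) and GPRC5D at -0.81 (9.84% lower). CD47 had -0.64, SLAMF7 -0.59, TNFRSF17 -0.38 and NCAM1 -0.28, with 15.9% to 37.2% of genes lower. SDC1 stood at 0.06, with a fold of 1.04 (1.004 to 1.082). The order of the antigens thus differed between the H929 libraries: TNFRSF17 was second in the one labelled after sorting and CD28 in the one labelled before.

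In KMS28BM the highest ratios were those of SLAMF7 at 0.59, with a fold of 1.52 (1.44 to 1.62), and CD47 at 0.56. They were followed by CD38 at 0.30, TNFRSF17 at 0.23 and GPRC5D at 0.17, the last on about 31.7 against 23.3 fragments with a fold interval of 0.715 to 2.26. SDC1 had -0.33, with a fold of 0.793 (0.773 to 0.814), and 14.8% of genes had a lower ratio. The authors' deposited table gave the smallest p-value among the members to CD38 in H929, at 0.104 with a q-value of 0.817, and no member was called there in either line.

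**Figure D2:**
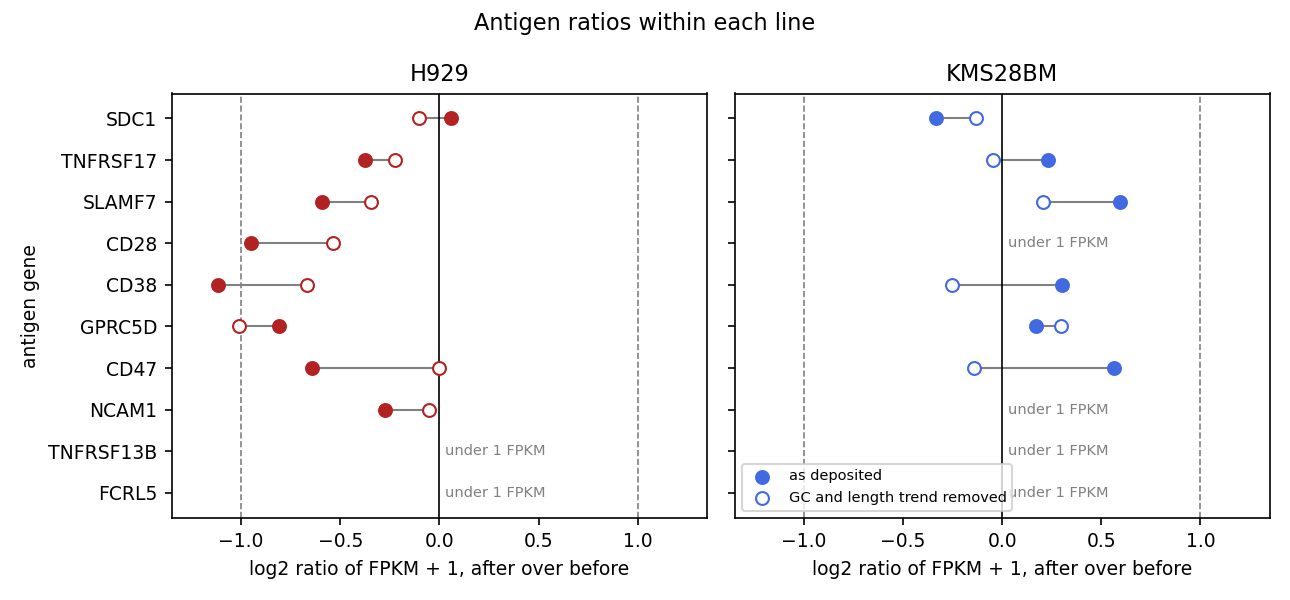
Log2 ratio of FPKM plus 1, the library labelled after over that labelled before sorting, for each antigen in H929 and KMS28BM, with dashed lines at 2-fold. Filled points are values as deposited and open points have a trend in GC content and length removed; CD47 comes to 0.00 in H929, and GPRC5D moves to -1.01.

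These ratios moved with the base composition of the transcripts. Of 10 equal bins of protein-coding genes by GC content, the lowest had a median ratio of -0.61 in H929 and 0.66 in KMS28BM, and the highest had 0.21 and -0.31. CD47 (38.5% GC), TNFRSF17 (42.0%), CD38 (42.4%), CD28 (42.6%) and SLAMF7 (45.0%) lie on the side that was lower in H929 and higher in KMS28BM, and SDC1 (60.1%) on the other. With a cubic trend in GC content and length removed, which took up 29.5% of the variance in H929 and 48.4% in KMS28BM, the members' medians were -0.28 and -0.09. CD47 was then at 0.00 in H929 and -0.14 in KMS28BM, and CD38 at -0.67 and -0.25. GPRC5D (51.8% GC, longest transcript 1038 bases) was then the member past 2-fold in H929, at -1.01, and 0.30 in KMS28BM. The bin nearest its GC content had a median ratio of -0.0063 in H929. The fitted trend for GPRC5D there, which also takes in length, was 0.20. CD28 came to -0.54, SLAMF7 to -0.34 and TNFRSF17 to -0.23 in H929. In KMS28BM, 2 of 6 members remained above 0, SLAMF7 at 0.20 and GPRC5D, while SDC1 was at -0.13.

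**Figure D3:**
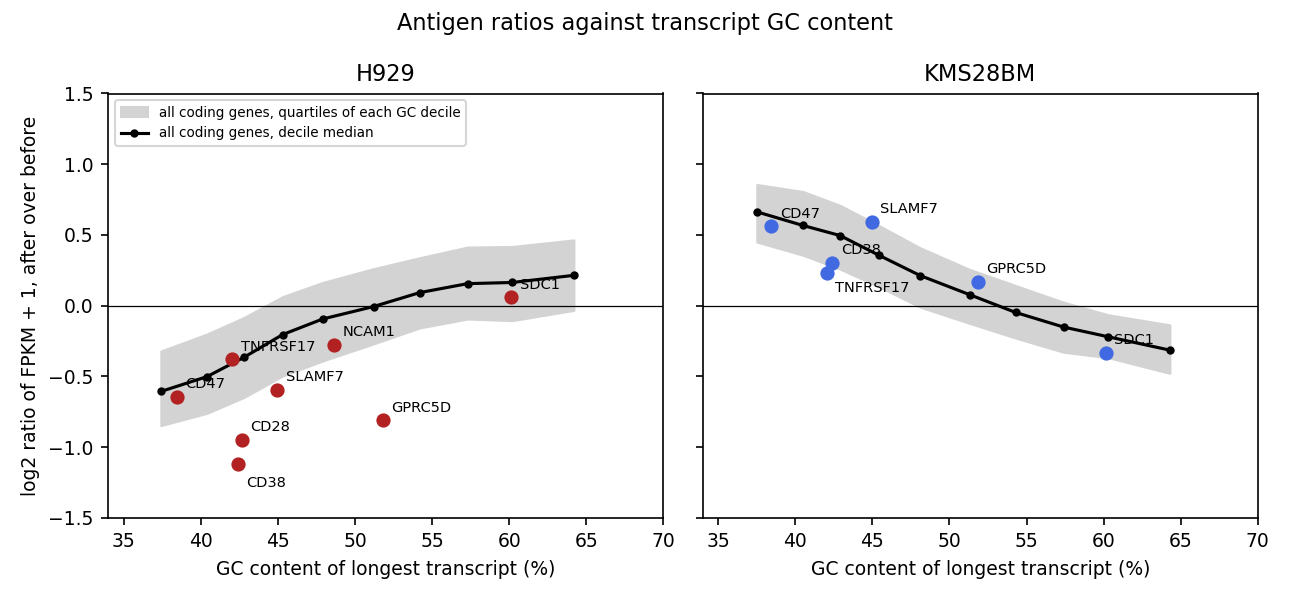
Log2 ratio of FPKM plus 1, after over before sorting, against the GC content of each gene's longest transcript. The black line is the median of all measured protein-coding genes in 10 bins of GC content and the grey band their quartiles. GPRC5D, CD38, CD28 and SLAMF7 lie below the band in H929, and the 6 antigens measured in KMS28BM lie close to it.

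Whether both lines moved the same way was asked in a limma fit over 12294 genes with line as a term. It called 6 genes higher (0.0488% of those tested) and 8 lower (0.0651%). Of the 8 members in the fit 0 passed with limma at an adjusted p of 0.05, and 0 had an unadjusted p under 0.05, against 184 of all genes. CD38 had the largest shared log2 change in size, -0.41 (SE 0.41, unadjusted p = 0.329 in the limma fit), and CD28 had -0.39 (SE 0.41). SLAMF7, with opposite ratios in the lines, had a shared log2 change of 0.00052 (SE 0.41).

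Genes that work with the antigens were taken from 14 lists. Those for the receptor families, syndecans, CD38, CD28, CD47 and adhesion molecules also hold the antigens themselves. Their medians include an antigen wherever it was measured. Among ligands and receptors of the BAFF and APRIL system TNFRSF17 alone reached 1 FPKM in H929, with the BAFF receptor TNFRSF13C at 0.715 and 0.556 FPKM. The ligand gene TNFSF13 (APRIL) was at 0.108 and 0.313 FPKM in H929, against 0.968 and 1.02 in KMS28BM, with 48.5% of its words shared with TNFSF12-TNFSF13. TNFSF13B (BAFF) stayed under 0.5 FPKM in all libraries. The gamma-secretase complex releases BCMA from the cell surface. Of its 6 subunit genes 5 were measured in each line and 0 were 2-fold apart, with medians of -0.10 in H929 and -0.18 in KMS28BM; APH1A was at 48.3 against 29.3 FPKM in H929 and 44.3 against 57.5 in KMS28BM, and NCSTN, the nicastrin subunit, at 40.3 against 43.9 and 75.0 against 67.7. TRAF adaptors, which carry signals of these receptors, had 0 genes 2-fold apart in either line and medians of -0.14 over 6 genes and -0.01 over 5, with TRAF3 at 4.97 against 5.06 and 7.16 against 7.06 FPKM.

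In the SLAM family, CD48 was the most abundant member, at 35.3 and 41.8 FPKM in H929, against 183 and 167 in KMS28BM. LY9 was at 0.698 and 1.14 FPKM in H929, against 6.49 and 5.72 in KMS28BM. Both KMS28BM libraries lay above both H929 libraries for these genes and SLAMF7, as they did for 29.0% of all genes. SH2D1B, which encodes the adaptor EAT-2 of SLAMF7, had the opposite arrangement, at 1.12 and 1.08 FPKM in H929 and at the listing floor in KMS28BM. The list's medians were -0.28 over 4 genes in H929 and 0.16 over 3 in KMS28BM. The FCRL family was almost silent: FCRLB was at 3.39 and 2.21 FPKM in H929, FCRLA at 1.40 and 1.04 FPKM in KMS28BM, and FCRL2 at most 0.0651 FPKM in any library. GPRC5D was the one gene of its family at 1 FPKM, with GPRC5B at 0.632 and 0.464 FPKM in H929.

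Among syndecans and the enzymes that shed or trim them, SDC4 was at 0.647 and 0.759 FPKM in H929, against 17.3 and 16.4 in KMS28BM. The sheddase ADAM17 was at 4.34 against 9.54 FPKM in H929 and 1.42 against 1.09 in KMS28BM, ratios of -0.98 and 0.22. ADAM10, a related sheddase named after its values were seen, was at 1.09 against 3.07 FPKM in H929 and 5.03 against 2.08 in KMS28BM, ratios of -0.97 and 0.97. These pass 2-fold in FPKM, as ADAM17 does in H929, but not on the scale of log2(FPKM + 1). On that scale 0 of the 5 and 7 genes measured were 2-fold apart, with medians of -0.20 and 0.22. With the trend in GC content and length removed, ADAM17 had -0.34 in H929 and -0.48 in KMS28BM, and ADAM10 had -0.27 and 0.26. Of 15 genes of heparan sulfate synthesis measured in H929 1 was 2-fold lower (5.17% of all genes were) and 0 were higher, with a median of 0.0044. Of 14 in KMS28BM 0 were 2-fold apart, with a median of 0.07. The gene past 2-fold was SULF1, an extracellular sulfatase, at 1.54 against 4.17 FPKM, a ratio of -1.03, or -0.58 with the trend removed. B3GAT3, an enzyme of the linker that joins heparan sulfate to its core protein, was at 40.9 against 49.0 FPKM in H929 and 45.4 against 59.5 in KMS28BM.

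The enzymes of NAD and adenosine metabolism around CD38 included the largest ratio of the 14 lists in each line, that of NAMPT. NAMPT, which makes the NAD precursor nicotinamide mononucleotide, was at 7.10 against 19.1 FPKM in H929, a ratio of -1.31, and at 36.6 against 14.2 FPKM in KMS28BM, a ratio of 1.31. With the trend removed these were -0.66 and 0.59, and 17.2% of its words are shared, mainly with NAMPTP1. Of the 5 genes measured, CD38 itself among them, 2 were 2-fold lower in H929, CD38 and NAMPT (5.17% of all genes were), and 1 was higher in KMS28BM, NAMPT (4.13% were); with the trend removed 0 were 2-fold apart in either line. The list had medians of -0.53 and 0.02; NADK, the NAD kinase, was at 22.3 against 21.6 and 20.3 against 22.5 FPKM. NT5E, which makes adenosine, was at 1.32 and 2.35 FPKM in H929, against 0.0283 and 0.0190 in KMS28BM.

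The ligands of CD28, CD80 and CD86, were under 0.3 FPKM in all libraries. Among its signalling partners VAV1 was at 14.4 and 12.7 FPKM in H929, against 1.70 and 1.77 in KMS28BM, and GRB2 at 11.4 and 10.9 in H929, against 37.0 and 18.4 in KMS28BM. PIK3R1, a regulatory subunit of PI3 kinase, was 2-fold lower in H929 (5.17% of all genes were) at 0.370 against 2.15 FPKM. Its ratio was -1.20, or -0.63 with the trend in GC content and length removed. The list's medians were -0.45 over 4 genes, CD28 itself at -0.95 among them, and 0.47 over 2. In H929 the ratios of VAV1 and GRB2 were above 0, at 0.17 and 0.06. The enzymes QPCTL and QPCT form pyroglutamate, the modification at the start of CD47 on which binding of SIRP-alpha depends. QPCTL overlapped between the lines, being at 21.9 and 12.9 FPKM in H929, against 10.6 and 15.2 in KMS28BM. Its relative QPCT was at 0.0476 and 0.141 FPKM in H929, against 95.1 and 46.8 in KMS28BM. There its ratio of 1.01 passed 2-fold (4.13% of all genes were 2-fold higher), but with the trend removed it was 0.76. Calreticulin (CALR), the signal that CD47 opposes, was at 689 against 469 FPKM in H929 and 1113 against 1178 in KMS28BM, and the list's medians were 0.55 over 3 genes and -0.07 over 5.

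**Figure D4:**
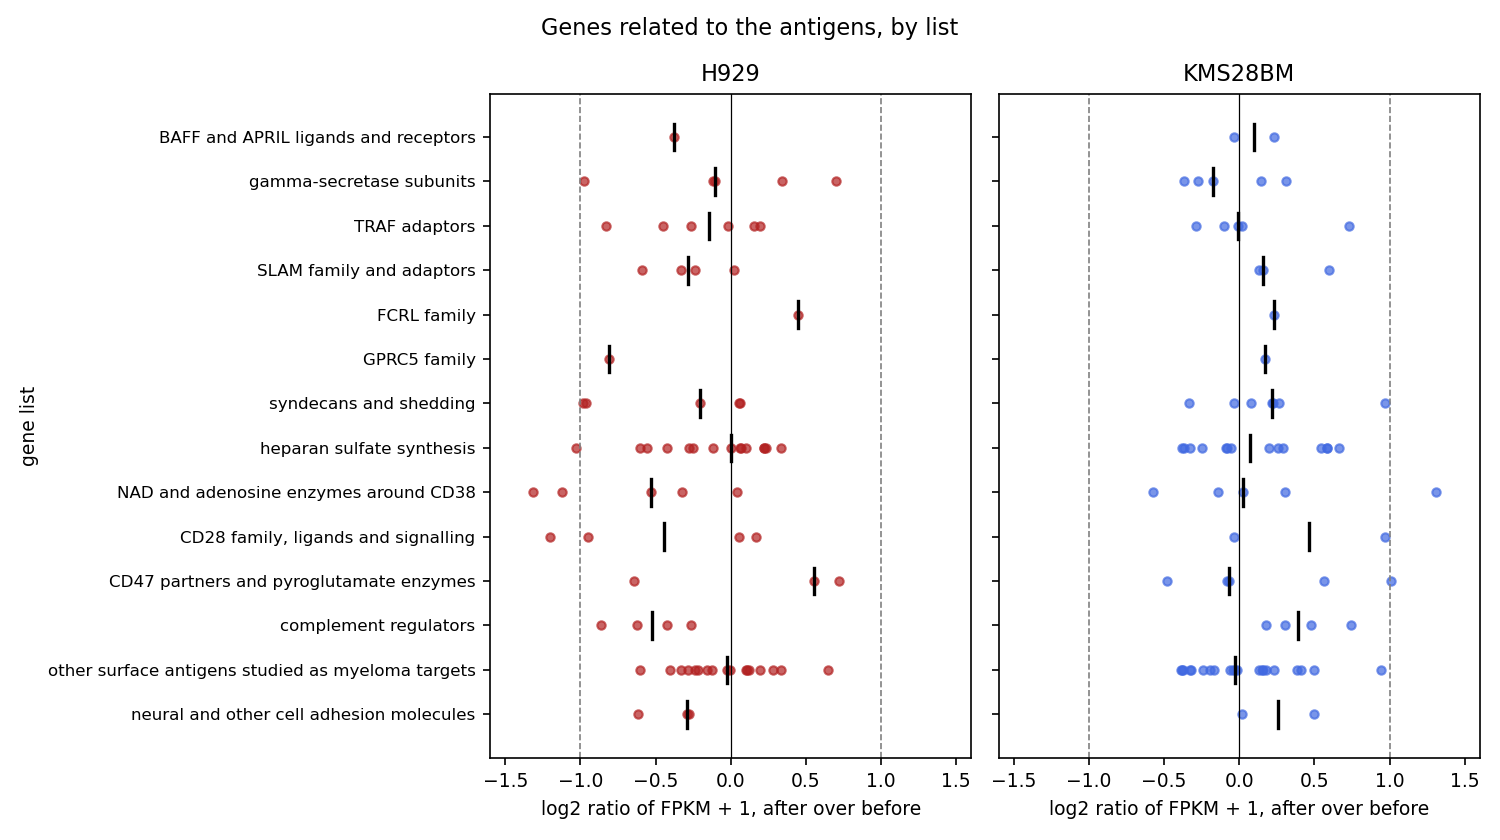
Log2 ratio of FPKM plus 1, after over before sorting, for each gene at 1 FPKM or more in 14 lists of genes related to the antigens; points are genes and black bars list medians, with dashed lines at 2-fold. NAMPT at -1.31 in H929 and 1.31 in KMS28BM lies farthest out in each line.

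Complement regulators limit killing by antibodies against CD38. All 4 genes measured had ratios below 0 in H929 (58.3% of genes did) and above 0 in KMS28BM (59.4% did), and 69.1% of all genes measured in both lines had opposite signs. They had medians of -0.53 and 0.39 and 0 genes 2-fold apart; with the trend removed the medians were -0.23 and -0.0041, CD59 was at 0.12 and -0.15, and CD55 at -0.28 and -0.02, so the 4 no longer shared the pattern. CD59 was at 14.1 against 17.1 FPKM in H929 and 12.0 against 9.49 in KMS28BM, and CD55 at 4.30 against 7.18 and 9.59 against 6.61. Of 31 other surface antigens studied as myeloma targets 17 were measured in H929 and 21 in KMS28BM, 0 were 2-fold apart within a line, and the median was -0.03 in both. Between the lines several differed widely. ITGB7, an integrin chain, was at 883 and 812 FPKM in H929, against 32.8 and 39.0 in KMS28BM, and CD74 at 7.17 and 6.12 FPKM in H929, against 578 and 721 in KMS28BM. BSG (CD147) was at 226 and 144 FPKM in H929, against 245 and 247 in KMS28BM, a gap between the means smaller than the spread between the H929 libraries. ICAM1, named after its values were seen, was at 0.664 and 0.194 FPKM in H929, against 312 and 326 in KMS28BM, and LAMP5, named in the same way, at 39.9 and 44.5 FPKM in H929, against 0.228 and 0.521 in KMS28BM. Among adhesion molecules related to NCAM1, MCAM was at 0.191 and 0.317 FPKM in H929, against 9.55 and 9.40 in KMS28BM and CADM1 at 6.40 and 8.07 in H929, against 6.87 and 4.57 in KMS28BM, with list medians of -0.29 over 3 genes and 0.26 over 2.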

How the data were processed

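RNA of 2 myeloma lines was measured in 4 libraries, grouped by the sample labels. The deposited values are FPKM, made by the authors and read per the file headers from 1 table per line; the submitters' processing notes list StringTie 1.3.0, HISAT2 2.0 and Bowtie 0.12.2 without a role, and mm8 as the build, a mouse build at odds with the human gene IDs. The deposited fold ratio and log2 ratio are the authors' values, A over B library, and the sources used here do not name the test behind the deposited p-values and q-values. Values at 0.0001 FPKM are a listing floor.

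Ratios were taken on log2(FPKM + 1) where 1 of the libraries of a line reached 1 FPKM. The shared change was fitted in R 4.3.3 with limma 3.58.1, on the same scale, over all 12294 genes. Line and sorting were terms, with a trend in the moderation and Benjamini-Hochberg adjustment. Simulated data were used to check its estimates of planted changes and the removal of a planted trend in GC content. That simulation had independent noise in each library, without the opposite GC trends of the lines, so it cannot test the fit's calls here. The lines are 2 separate cultures, and nothing says more of replication. Transcript GC content, length, 50-base words and overlaps came from GENCODE release 29, where 58394 of 60612 IDs matched; its coordinates were not set against the files. Fragments were estimated as FPKM times the median length of the basic coding transcripts times depth, with depth read from the pile-up, within 1%, of FPKM times length at 1 fragment in genes with 1 listed transcript; between 365 and 410 genes per library lay in it. No pair of libraries held identical values. Promoters came from RefSeq.

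The members and the lists were chosen with earlier results of these data known. All members were named, and of each list up to 3 genes with the highest mean FPKM and every gene 2-fold apart, except that marker genes are given as sums with IRF4 described beside them, and some genes are not described; other names were chosen after their values were seen. Alternatives were pseudocounts of 0.1 and 5, no filter or 5 FPKM, median centring, trimmed-mean scaling (5% of levels and 30% of ratios dropped per tail), trend removal, thresholds of 1.5-fold and 4-fold, no trend in the moderation, and other scalings of the levels. The remaining software was SciPy 1.17.1, matplotlib 3.10.9, pandas 2.3.3, numpy 2.4.6 and Python 3.11.15.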

Additional observations from a re-analysis of the deposited data

Results flagged for a closer look

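All 6 antigens at 1 FPKM or more in both lines had ratios of opposite sign in H929 and KMS28BM. The H929 ratio minus the KMS28BM ratio, on the log2 scale of FPKM plus 1, was -1.42 for CD38, -1.21 for CD47, -1.19 for SLAMF7, -0.98 for GPRC5D, -0.61 for TNFRSF17 and 0.39 for SDC1. With 1 pair of libraries per line the difference was not tested. Opposite signs were found in 69.1% of the 9261 genes measured in both lines. With the trend in GC content and length removed the differences were -0.41 for CD38, 0.14 for CD47 and -0.55 for SLAMF7. They were -1.31 for GPRC5D, -0.18 for TNFRSF17 and 0.03 for SDC1. CD38 (-0.67 and -0.25), TNFRSF17 (-0.23 and -0.05) and SDC1 (-0.10 and -0.13) then had ratios below 0 in both lines. SLAMF7 and GPRC5D kept opposite signs, and CD47 was at 0.0003 in H929 and -0.14 in KMS28BM. Under trimmed-mean scaling TNFRSF17 and GPRC5D were below 0 in both lines.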

How the results depend on the processing

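In H929 the members 2-fold or more lower numbered 1 of 8 as reported. They were 0 with a pseudocount of 5, with trimmed-mean scaling and at 4-fold. With median centring they were 2 (CD38 and CD28), where 749 of 11083 genes were lower. At 1.5-fold they were 5, where 2079 genes were lower. With the trend removed the count was 1, where 260 genes were lower, but the gene was GPRC5D in place of CD38. In KMS28BM 1 of 6 members was higher at 1.5-fold, against 0 as reported, where 1928 of 10472 genes were higher. Over all genes, the H929 split of 176 higher and 573 lower became 327 and 1515 with a pseudocount of 0.1 and 60 and 79 with 5. It was 140 and 749 with median centring, 420 and 217 with trimmed-mean scaling and 276 and 260 with the trend removed. It was 820 and 2079 at 1.5-fold, 23 and 36 at 4-fold, and 128 and 309 at 5 FPKM. The KMS28BM split of 433 and 117 became 1283 and 214 with a pseudocount of 0.1 and 58 and 36 with 5. It was 505 and 101 with median centring, 159 and 204 with trimmed-mean scaling and 116 and 144 with the trend removed. It was 1928 and 451 at 1.5-fold, 26 and 19 at 4-fold, and 268 and 66 at 5 FPKM. The shared fit called 6 higher and 8 lower genes as reported, 2 and 2 with a pseudocount of 0.1, and 3 and 3 with 5. It called 13 and 11 at 5 FPKM, and 0 and 0 without a filter, with median centring or with the trend removed. The causes were not tested. The shared SLAMF7 change turned to -0.15 with a pseudocount of 0.1, -0.018 with median centring and -0.0695 with the trend removed, and that of CD47 to 0.017 with a pseudocount of 5. Of the 4 members higher in KMS28BM 1 was left at a gap of 10-fold. With levels scaled to genes outside mitochondrial and immunoglobulin genes, or to the upper quartile, 3 were left. The members higher in H929 stayed at 3 under each of these.

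The shared fit pairs the libraries by line; the labels carry no replicate numbers, so no other pairing was fitted. Leaving out a library leaves no pair in that line. Depth limits TNFRSF13B and FCRL5 in both lines and NCAM1 in KMS28BM.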
